A study of Mus musculus with 37 samples.

Results

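The circadian clock genes described here are 10 genes chosen by symbol: Arntl, Cry1, Per1, Per2, Per3, Nr1d1, Nr1d2, Dbp, Hlf and Tef. All 10 were found among the 32108 genes of the count table, and all 10 passed the filter on low counts in each fit. RNA on the ribosomes of mouse podocytes, the foot-process cells of the glomerulus, was collected by TRAP, translating ribosome affinity purification, which pulls down tagged ribosomes of a chosen cell type together with the RNA they carry. There were 36 TRAP libraries and 1 library of total kidney RNA.

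All mice were labelled C57BL/6. In the type 2 model the controls were eNOS-/-, with 5 libraries at 3 months of age and 4 at 6 months. The diabetic mice of that model were eNOS-/- db/db, with 5 libraries at 3 months and 3 at 6 months, so control and diabetic mice both lacked eNOS, the endothelial nitric oxide synthase. In the type 1 model diabetes was brought on by streptozotocin (STZ), a toxin of the insulin-producing beta cells. It comprised 5 libraries taken after 3 weeks of STZ at an age of 3 months and 5 taken after 24 weeks at an age of 8 months. The type 1 controls had no STZ, with 4 libraries at an age of 3 months (called the 3-week controls here) and 5 at 8 months (the 24-week controls). For the type 1 model the labels name no genotype. The kidney library came from eNOS-/- at 3 months. The deposited data are titled PodocinCre TRAP, which names a Podocin-Cre driver. The transgene that tags the ribosomes, the sex of the mice and the time of day of collection are not given in the sources used here. Nor do the labels say that libraries came from separate mice, and p-values therefore cover only the scatter of libraries, which may in part be technical.

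The mammalian clock is a loop of transcription factors that runs in nearly every cell and is set to the time of day by light, feeding and hormones. The protein of Arntl (also called Bmal1) pairs with CLOCK or NPAS2 and switches on genes that carry an E-box, among them the Per and Cry genes, whose proteins return to block the pair. Nr1d1 and Nr1d2 (Rev-erb alpha and beta) are also switched on by the pair and repress Arntl through RORE sites, where the ROR receptors compete with them. Dbp, Hlf and Tef encode PAR bZIP factors, which bind D-boxes and carry the rhythm to output genes, and NFIL3 competes for the same sites. In mouse tissues Arntl and Dbp peak at opposite times of day. In the kidney, clock genes are known for daily rhythms in filtration and in the handling of sodium and water.

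The control elements named above can be seen in the promoters of several members. The stretches below, from RefSeq on build GRCm38.p6, are shown because most hold motifs through which the loop is known to work. That of Hlf holds instead a cyclic AMP response element, which is not among the elements named above. Capitals mark each match of the motifs listed after the stretches. Each is written 5′ to 3′ on the strand of its gene.
Per1, chr11:69098761-69098810, + strand: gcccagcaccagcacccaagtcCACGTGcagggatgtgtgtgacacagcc
Cry1, chr10:85185087-85185136, - strand: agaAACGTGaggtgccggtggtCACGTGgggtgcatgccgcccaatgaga
Nr1d1, chr11:98775389-98775416, - strand: gcacagatctcAACGTGccggctgctgg
Tef, first start site, chr15:81802524-81802573, + strand: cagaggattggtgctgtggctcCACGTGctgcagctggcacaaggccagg
Tef, second start site, chr15:81811254-81811303, + strand: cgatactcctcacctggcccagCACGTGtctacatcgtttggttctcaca
Per3, chr4:151044804-151044882, - strand: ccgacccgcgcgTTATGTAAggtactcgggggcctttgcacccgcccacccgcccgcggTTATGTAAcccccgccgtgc
Arntl, chr7:113207530-113207558, + strand: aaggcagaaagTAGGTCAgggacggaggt
Hlf, chr11:90390918-90390946, - strand: tcggcgcgcggtgcgggcccTGACGTCAc

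Windows of 300 bases, from 250 before to 50 after the RefSeq start, were searched on both strands. The table of windows held 12 for 9 of the 10 members, and Per2 had none. An E-box (CACGTG) was found in 1 of the 2 windows of Per1, in Cry1 and at both start sites of Tef. It occurs in 7.15% of all 32851 windows. The related sequence CACGTT was found in Nr1d1, where it reads as AACGTG on the gene's strand, and also in Cry1, and it occurs in 4.68% of windows. Per3 held a pair of D-boxes, both with the letters TTATGTAA. That form and the form TTACGTAA, which was also searched for, occur in 1.06% of windows. Arntl held a RORE core in 1 of its 2 windows, within the first transcribed bases of that start site, with the letters TAGGTCA. That form and the form TGGGTCA, which was also searched for, occur in 6.45% of windows. Hlf held a cyclic AMP response element (TGACGTCA), found in 1.79% of windows. No match lay in the windows of Dbp and Nr1d2, which says only that these letters are absent from those stretches. Of the other clock genes, Ciart held 3 E-boxes, Bhlhe41 held an E-box, Nfil3 held a RORE core, Cry2 and Rorb held a CACGTT and Timeless held a D-box.

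**Figure D1:**
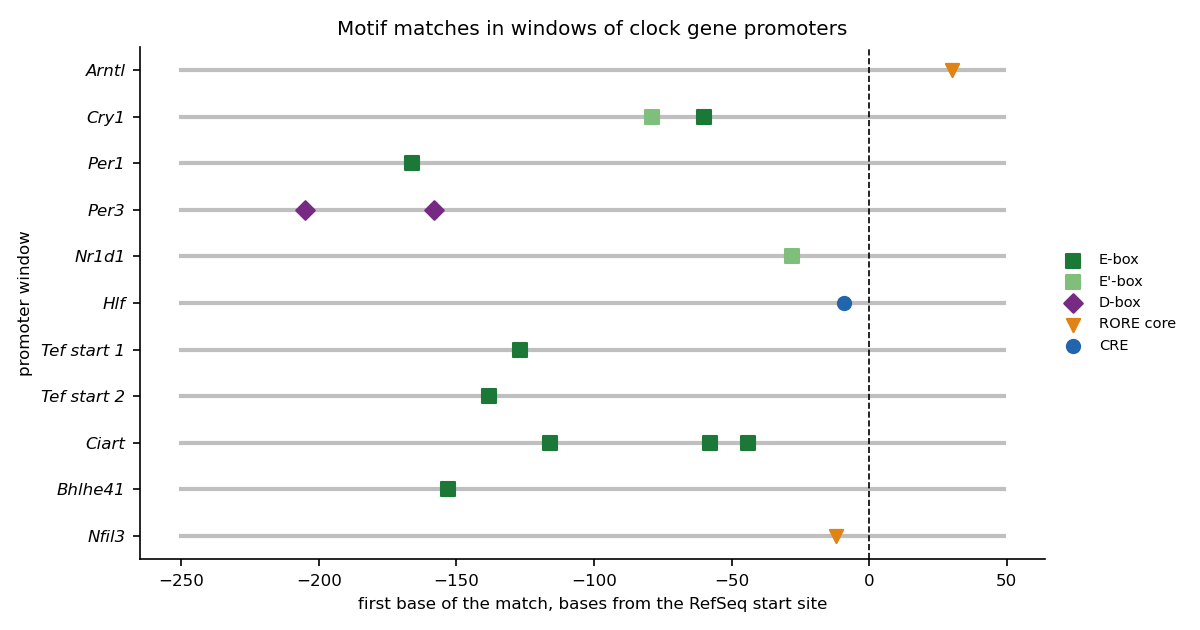
Motif matches in promoter windows at 8 start sites of 7 members and of 3 other clock genes, by distance of the first base of each match from the RefSeq start site in bases (dashed line at 0; grey bars mark the window searched). Arntl holds its RORE core after the start site, Per3 holds 2 D-boxes, and Ciart holds 3 E-boxes.

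Library totals ran from 6702120 to 37786025 counts in TRAP and came to 28033680 in the kidney library. The 18S gene took 1.43 to 18.4% of TRAP counts. The label of podocyte held against its markers: Nphs1, the gene of the slit diaphragm protein nephrin, was at 1617 ± 363 CPM (counts scaled to the library total; SD, n = 5) in type 2 controls at 3 months and at 13.9 CPM in the kidney library. None of the 14 podocyte markers was at 0 in every library of a group. Markers of other kidney cells were also present, and their sums are given beside the comparisons.

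The level of the members, compared per gene length as FPKM (counts scaled to gene length and library total), was highest for Dbp, with a median of 52.9 FPKM over the 36 TRAP libraries. Tef followed at 47.3, Per1 at 44.0, Nr1d1 at 37.2 and Nr1d2 at 36.8 FPKM. These 5 medians lay close together beside a range between libraries of 0.743 to 121 FPKM for Dbp and 1.45 to 128 FPKM for Nr1d1. Hlf had a median of 21.8 FPKM, Per2 of 13.2, Per3 of 6.07 and Cry1 of 4.99. Arntl was the lowest, at 1.76 FPKM, and its counts ran from 5 to 842 a library, so the lowest Arntl values rest on few reads.

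Libraries of one group differed far more in Dbp, Arntl and Nr1d1 than in the other members. The pooled SD within groups on the log2 CPM scale was 1.37 for Dbp, 1.27 for Arntl and 0.96 for Nr1d1. Those values stood at the 99.9th, 99.8th and 99.0th percentiles of genes with a mean of at least 10 CPM (Arntl itself averaged 8.91 CPM). Per3 (0.65), Cry1 (0.59), Nr1d2 (0.55), Per1 (0.50) and Per2 (0.44) came next, from the 94.7th down to the 79.0th percentile. Hlf and Tef were steadier, with SDs of 0.38 and 0.34 at the 67.8th and 58.9th percentiles.

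Much of that spread lay in 4 control libraries that stood apart from the rest of their own groups: replicates 1 and 2 of the type 2 controls at 3 months and replicates 1 and 2 of the 3-week type 1 controls. Dbp was at 29.2 and 36.7 CPM in the first pair, against 293, 212 and 271 CPM in the other libraries of that group. In the second pair it was at 2.29 and 2.19 CPM, against 164 and 149 CPM. Arntl went the other way. It was at 31.5 and 24.5 CPM in the first pair, against 1.11, 6.23 and 3.99 CPM, and at 47.3 and 43.0 CPM in the second pair, against 3.07 and 6.34 CPM. The highest Dbp value of the 3-week controls was 74.9 times the lowest, and the highest Arntl value of the 3-month type 2 controls was 28.5 times the lowest.

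The same pairs were apart in other genes of the loop. Per3, a Period gene, was at 15.3 and 15.6 CPM against 74.3, 54.4 and 55.5 CPM in the type 2 controls, and at 13.5 and 23.6 CPM against 81.2 and 69.9 CPM in the 3-week controls. Npas2, the alternative partner of Arntl, was at 27.7 and 22.2 CPM against 1.36, 5.79 and 1.23 CPM, and at 21.9 and 31.4 CPM against 1.07 and 1.68 CPM. Bhlhe41 (Dec2), a repressor driven by the loop, was at 15.2 and 18.2 CPM against 152, 112 and 137 CPM, and at 18.5 and 11.4 CPM against 51.1 and 46.1 CPM. Thus several genes of both arms of the loop set these pairs off, in opposite directions. Nr1d1 did so only in the 3-week controls, with 6.46 and 4.44 CPM against 80.0 and 53.7 CPM, while in the type 2 controls the 5 libraries lay between 164 and 231 CPM. Per1 did so in neither group, with 245 and 251 CPM against 479, 202 and 379 CPM, and 249 to 282 CPM in the 3-week controls. Per2 (103 to 131 CPM) and Cry1 (52.6 and 45.9 CPM against 18.6 and 48.4) did not set off the 3-week pair. In the type 2 pair Per2 was lower and Cry1 higher than in the rest of the group. The 10 genes listed as responsive to glucocorticoid and mineralocorticoid hormones summed to 4781 and 4055 CPM in the 3-week pair, against 3407 and 4171 CPM, and so did not set it off. Of these, 2 chosen after their values were seen lay higher in the pair, Tsc22d3 (889 and 506 CPM against 312 and 277) and Fkbp5 (445 and 465 CPM against 240 and 175). The time of day of collection, whose part in these differences was not tested, is not recorded for any library. Several results below that rest on these libraries are given with and without them, and others with them only. This grouping was made after the values were seen.

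**Figure D2:**
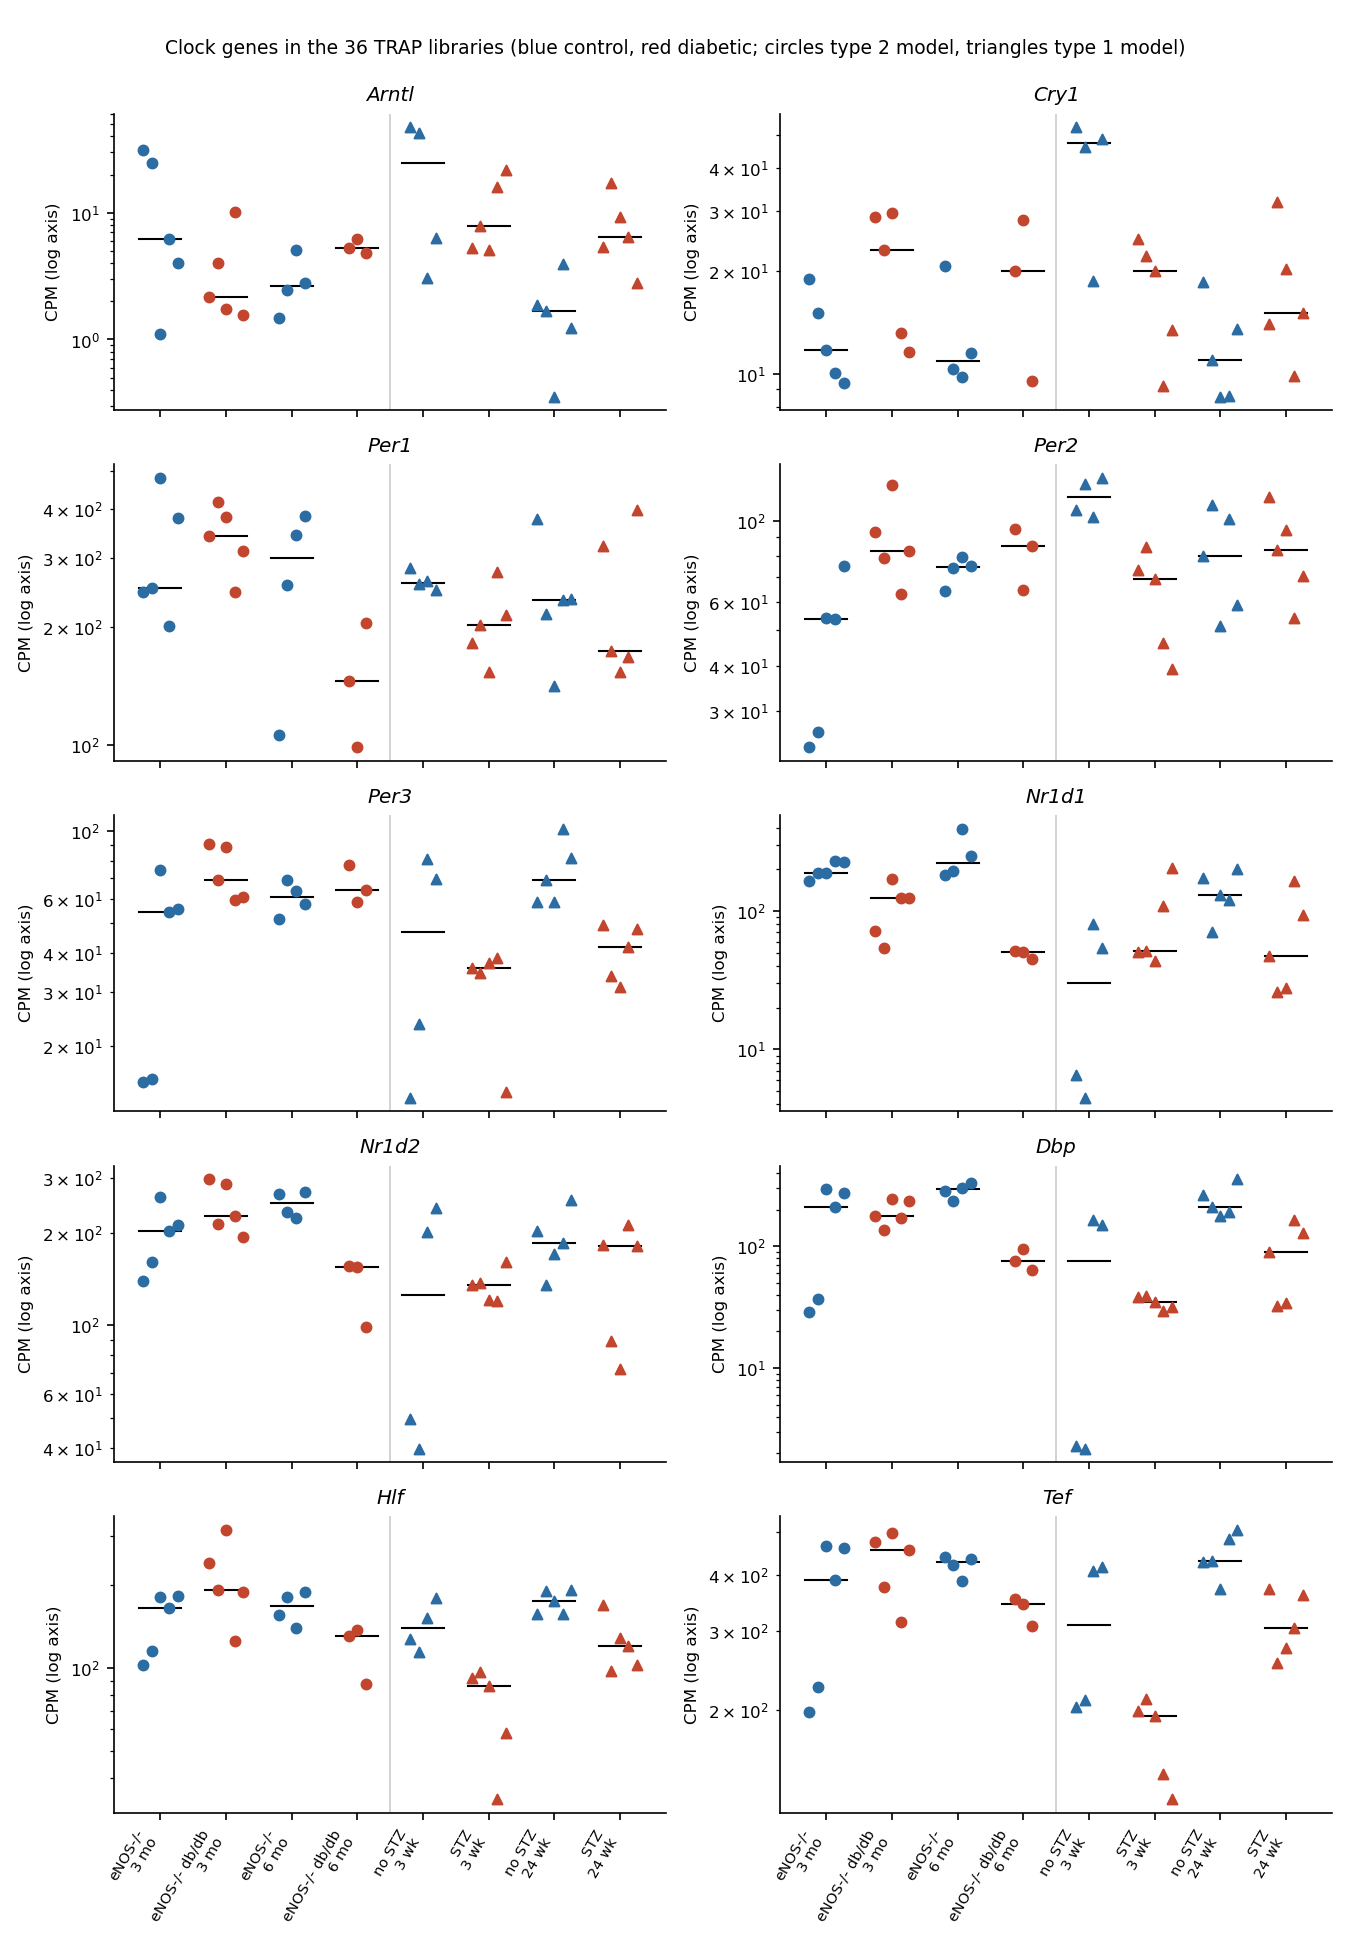
CPM of each member (log axis) in the 36 TRAP libraries by group, with controls in blue, diabetic mice in red, circles for the type 2 model, triangles for the type 1 model and a line at each group's median. In the 3-week controls (no STZ, 3 wk) Dbp splits into 2.29 and 2.19 CPM and 164 and 149 CPM, and Arntl splits the opposite way.

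**Figure D3:**
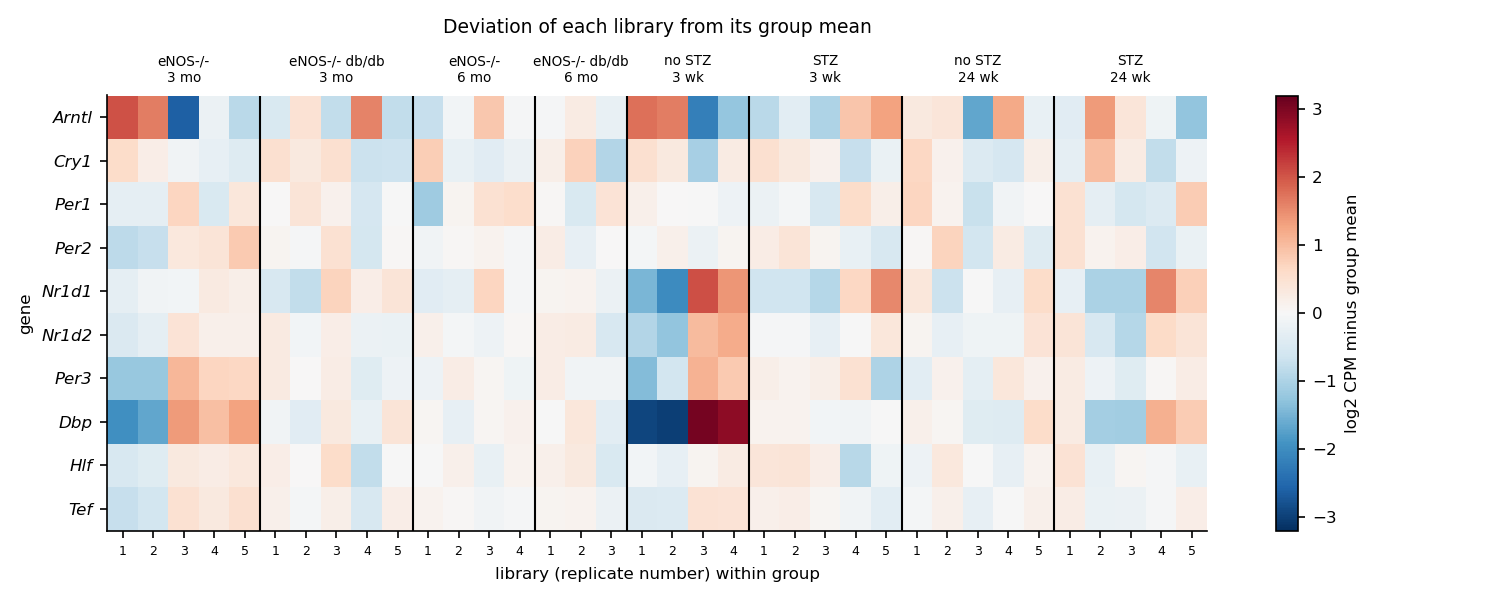
Deviation of each TRAP library from the mean of its group on the log2 CPM scale, 1 column a library and 1 row a gene (red above, blue below the group mean). Replicates 1 and 2 of the eNOS-/- group at 3 months and of the no STZ group at 3 weeks are red for Arntl and blue for Dbp, Per3 and Tef.

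In the type 2 model at 6 months the repressors Nr1d1 and Nr1d2, the output factor Dbp and Per1 were called lower in diabetic podocytes, and no member was called higher. By edgeR's quasi-likelihood test with Benjamini-Hochberg adjustment over all genes, 4 of 10 members passed, all lower, where 22.9% of all 17180 genes tested passed in either direction and 11.7% were lower. The median log2 difference of the 10 members was -0.63, against -0.01 over all genes. In bulk RNA, fewer cells of a type and less RNA per cell cannot be told apart, and 13 of 14 podocyte markers were also lower in this comparison. Their summed level was 4099.9 to 17708 CPM in the diabetic libraries and 26177 to 31059 CPM in the controls. Immune markers summed to 149 to 273 CPM against 56.5 to 102 CPM, and proximal tubule markers to 3512 to 7898 CPM against 9324 to 12163 CPM. Parietal markers summed to 212 to 462 CPM against 83.6 to 135 CPM, and mesangial and smooth muscle markers to 203 to 641 CPM against 99.0 to 157 CPM. Their part in the clock gene differences was not tested.

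Nr1d1, the stronger known repressor of Arntl, was at 51.3, 50.8 and 44.9 CPM in diabetic mice at 6 months and at 181, 195, 394 and 248 CPM in their controls. The groups were far apart, and the diabetic libraries were nearly equal. The log2 difference was -2.60 (SE 0.33, edgeR adjusted p 0.000109), or 6.07-fold lower, and it passed with each of the 7 libraries left out in turn. Nr1d2, its paralog, was at 156, 154 and 98.9 CPM against 266, 233, 223 and 270 CPM. All diabetic libraries lay below all controls, with a log2 difference of -1.08 (SE 0.22, edgeR adjusted p 0.00239), and that call also held without any 1 library.

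Dbp was at 76.4, 94.5 and 63.9 CPM in diabetic mice at 6 months and at 286, 234, 302 and 332 CPM in their controls, again with no overlap. It was 4.30-fold lower, a log2 difference of -2.10 (SE 0.63, edgeR adjusted p 0.0259). Without diabetic replicate 1 the edgeR adjusted p rose to 0.0708, and without diabetic replicate 3, the shallowest library of the series, to 0.132. The other PAR bZIP factors lay lower too without passing: Hlf differed by -0.70 (edgeR adjusted p 0.0679) and Tef by -0.56 (edgeR adjusted p 0.128) on the log2 scale, each with all diabetic libraries below all controls. In all, 5 members were lower without overlap (Nr1d1, Nr1d2, Dbp, Hlf and Tef), as were 8.16% of all genes.

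Per1, a Period gene that responds quickly to hormones and other signals, was at 146, 98.8 and 205 CPM against 106, 256, 343 and 384 CPM at 6 months. The groups overlapped through control replicate 1. The log2 difference of -1.09 (SE 0.36, edgeR adjusted p 0.0376) was no longer called when any of 6 of the 7 libraries was left out, with adjusted p-values up to 0.11, and it strengthened without control replicate 1 (0.0079). Per2, Per3, Cry1 and Arntl gave log2 differences of -0.08, -0.09, 0.35 and 0.65 at 6 months, and none passed. Arntl lay between 4.77 and 6.18 CPM in the diabetic libraries and between 1.48 and 5.09 CPM in the controls.

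At 3 months in the type 2 model only Nr1d1 passed among the members. With 1 of 10 called, the members stood beside 3.99% of all genes, and their median log2 difference was 0.21 against 0.04 over all genes. Nr1d1 was at 71.0, 53.9, 169, 124 and 124 CPM in diabetic mice and at 164, 189, 189, 231 and 226 CPM in controls. All but 1 of the diabetic libraries lay below the lowest control. The log2 difference was -0.98 (SE 0.25, edgeR adjusted p 0.0309), and leaving out any of 7 of the 10 libraries ended the call, with adjusted p-values of 0.0512 to 0.0842. Without control replicates 1 and 2 it was -1.10 with an edgeR adjusted p of 0.064.

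The values of Arntl and Per2 at 3 months depended on the 2 control libraries that stood apart. Arntl was at 2.15, 3.98, 1.75, 10.2 and 1.56 CPM in diabetic mice, and its log2 difference of -1.90 (SE 0.69, edgeR adjusted p 0.153) became -0.11 without control replicates 1 and 2. Per2 was at 92.9, 79.1, 125, 62.9 and 82.8 CPM in diabetic mice and at 23.9, 26.3, 54.0, 53.8 and 75.2 CPM in controls. Its log2 difference was 0.84 (SE 0.26, edgeR adjusted p 0.0868), and 0.44 without those libraries. Dbp, which lay between 137 and 244 CPM in the diabetic libraries, differed by 0.10 on the log2 scale (edgeR adjusted p 0.951). Without those control libraries the difference of Dbp was -0.52 (edgeR adjusted p 0.233). Proximal tubule markers summed to 3979.6 to 8927 CPM in the diabetic libraries and to 9390.4 to 13292 CPM in the controls, and 4 of 16 were called lower. Mesangial and smooth muscle markers, 2 of 7 of which were called higher, summed to 165 to 769.8 CPM against 108 to 139.6 CPM. Of the parietal markers 1 of 5 was called higher, and of the podocyte and endothelial markers 1 of 14 and 1 of 8 lower, with overlapping sums. Their part in these values was not tested.

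Whether the diabetic difference changed between 3 and 6 months was tested directly as an interaction. No gene of the 17180 passed (0%), so no member did, while 3252 genes, 8 members among them, had an unadjusted p under 0.05. With DESeq2, 577 genes and 2 members passed. The interaction for Nr1d1 was -1.62 on the log2 scale (SE 0.40, edgeR adjusted p 0.117), and it passed (0.0301) without diabetic replicate 2 at 6 months, when 3 members and 10.5% of all genes passed. With control replicates 1 and 2 at 3 months left out, the Nr1d1 interaction was -1.49 (edgeR adjusted p 0.153). Without diabetic replicate 4 at 3 months, 2 members and 1.53% of all genes passed.

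**Figure D4:**
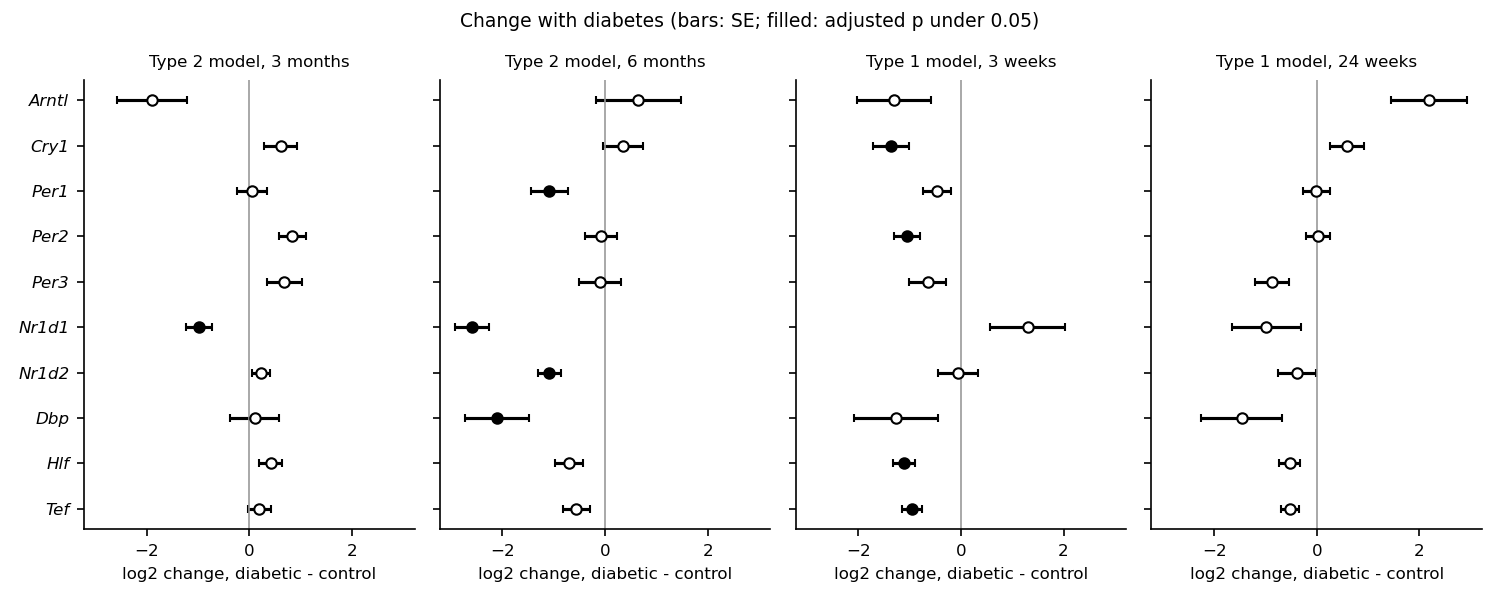
Log2 difference between diabetic and control libraries for each member in the 4 diabetic comparisons, with bars of 1 SE and filled points where the edgeR adjusted p was under 0.05. Nr1d1 is filled in both panels of the type 2 model, at -0.98 and -2.60, and Cry1, Per2, Hlf and Tef are filled in the type 1 model at 3 weeks.

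In the type 1 model after 3 weeks of STZ, Cry1, Per2, Hlf and Tef were called lower in diabetic podocytes and no member was called higher. These 4 of 10 members passed where 6.5% of all 16279 genes tested passed in either direction and 2.72% were lower. The members' median log2 difference was -0.999, against 0.0024 over all genes. No podocyte marker passed, with sums of 11846 to 22693 CPM in diabetic mice and 11569 to 27014 CPM in controls. Proximal tubule markers, 11 of 16 of which were called lower, summed to 4088 to 7954 CPM against 10365 to 16194 CPM. Immune markers summed to 74.2 to 271 CPM against 39.8 to 80.9 CPM, and parietal markers to 179 to 297 CPM against 107 to 157 CPM. Mesangial and smooth muscle markers, 2 of 7 of which were called higher, summed to 160 to 565 CPM against 137 to 350 CPM. Of the endothelial markers 1 of 8 was called higher, and of the distal nephron and collecting duct markers 1 of 9, with overlapping sums. The diabetic libraries also split among themselves, a grouping made after the values were seen. Podocyte sums were 11846 to 13266 CPM in replicates 1 to 3 and 22693 and 21122 CPM in replicates 4 and 5. Immune sums were 184 to 271 CPM against 74.2 and 98.4 CPM, and mesangial and smooth muscle sums 505 to 565 CPM against 160 and 229 CPM. Cry1, Per2, Hlf and Tef were lower in replicates 4 and 5 than in replicates 1 to 3. Dbp was slightly lower there in CPM, at 29.3 and 31.7 against 35.1 to 39.2 CPM. Arntl, Nr1d1 and Per1 were higher in replicates 4 and 5, and Per3 and Nr1d2 did not split this way. The part of these markers in the clock gene differences was not tested.

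Hlf was at 92.0, 96.9, 86.4, 33.6 and 58.4 CPM in diabetic mice after 3 weeks and at 127, 114, 151 and 180 CPM in controls. The groups did not overlap, and the log2 difference was -1.11 (SE 0.22, edgeR adjusted p 0.00363). Per2, which feeds back on the Arntl complex, was at 73.2, 84.6, 69.1, 46.2 and 39.2 CPM against 107, 126, 103 and 131 CPM. It too showed no overlap, with a log2 difference of -1.05 (SE 0.25, edgeR adjusted p 0.0135). Hlf and Per2 were the members that did not overlap at 3 weeks, and 2.63% of all genes were lower without overlap.

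Tef was at 198, 211, 193, 144 and 126 CPM in diabetic mice and at 203, 210, 407 and 417 CPM in controls. Diabetic replicates 1 to 3 lay close to the low pair of controls, replicates 4 and 5 lay below it, and all 5 lay far below the other pair. Its log2 difference was -0.95 (SE 0.19, edgeR adjusted p 0.0046). Cry1, the repressor that acts late in the cycle, was at 24.8, 22.1, 19.9, 9.18 and 13.4 CPM against 52.6, 45.9, 18.6 and 48.4 CPM. Control replicate 3 lay within the diabetic range. The log2 difference was -1.37 (SE 0.35, edgeR adjusted p 0.0204), and the call was lost without control replicate 1 (0.0775), control replicate 4 (0.0521) or diabetic replicate 3 (0.0501).

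Which members were called after 3 weeks depended on the pair of controls that stood apart. Without control replicates 1 and 2 the count was again 4, all lower, beside 2.68% of all genes in either direction, but Hlf (-1.24, edgeR adjusted p 0.0135) and Tef (-1.30, 0.000957) were joined by Dbp (-2.22, 0.00777) and Per3 (-1.29, 0.0116). Cry1 (-0.96, 0.25) and Per2 (-0.96, 0.105) no longer passed. With all controls, Dbp differed by -1.26 (SE 0.83, edgeR adjusted p 0.421) and Per3 by -0.65 (0.315). Dbp was at 38.4, 39.2, 35.1, 29.3 and 31.7 CPM in the diabetic libraries, a narrow band that lay between the low pair of controls at 2.29 and 2.19 CPM and the high pair at 164 and 149 CPM. Arntl was at 5.31, 7.87, 5.11, 16.0 and 21.7 CPM in diabetic mice, and its log2 difference turned from -1.30 (edgeR adjusted p 0.323) to 1.24 (0.425) without that pair. Nr1d1 was at 50.2, 51.2, 43.6, 109 and 203 CPM in diabetic mice, with a log2 difference of 1.30 (edgeR adjusted p 0.333) that became 0.44 (0.81).

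After 24 weeks of STZ no member passed by edgeR, where 0.897% of all genes did. At an unadjusted p under 0.05, 4 members stood (Arntl, Hlf, Per3 and Tef), beside 1745 of 16279 genes. With only the 2 groups compared in the fit 1 member passed (Per3, edgeR adjusted p 0.0254), beside 1.29% of all genes. The members' median log2 difference was -0.45, against -0.01 over all genes. Podocyte markers summed to 6018 to 26862 CPM in diabetic mice and 10818 to 28979.9 CPM in controls, and immune markers to 112 to 197 CPM against 68.4 to 134 CPM. Proximal tubule markers summed to 5582 to 9569 CPM against 9186 to 13919 CPM, and 1 of 16 was called lower. Distal nephron and collecting duct markers summed to 1576 to 3399 CPM against 1302 to 2388 CPM, and 1 of 9 was called higher. Their part in the values that follow was not tested.

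Even so, 3 members were lower without overlap after 24 weeks, as were 1.37% of all genes. Dbp was at 90.0, 32.2, 34.0, 163 and 128 CPM in diabetic mice and at 262, 212, 179, 189 and 355 CPM in controls, a log2 difference of -1.47 (SE 0.79, edgeR adjusted p 0.556). Its diabetic libraries spread 5.05-fold, and all lay below the lowest control. Per3 was at 49.5, 33.7, 30.9, 42.0 and 47.9 CPM against 58.6, 69.3, 58.6, 102 and 81.4 CPM, a log2 difference of -0.87 (SE 0.34, edgeR adjusted p 0.298). Tef, at 372, 254, 275, 305 and 362 CPM against 428, 429, 372, 481 and 504 CPM, differed by -0.52 (SE 0.18, edgeR adjusted p 0.219), its highest diabetic library lying just below its lowest control.

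Arntl gave the largest upward difference among the members after 24 weeks. It was at 5.41, 17.2, 9.22, 6.43 and 2.80 CPM in diabetic mice and at 1.87, 1.68, 0.354, 3.91 and 1.23 CPM in controls. Only 1 diabetic library fell within the range of the controls, but the log2 difference of 2.19 (SE 0.74) had an edgeR adjusted p of 0.212. Nr1d1 was at 46.8, 25.7, 27.6, 165 and 93.7 CPM in diabetic mice and at 173, 70.1, 131, 120 and 201 CPM in controls (log2 difference -0.98, edgeR adjusted p 0.7). Diabetic replicates 2 and 3 were low in both Nr1d1 and Dbp and held the highest Arntl values of their group. The interaction of diabetes with time in this model called none of 16279 genes (0%) by edgeR. At an unadjusted p under 0.05 there were 1092 genes, 4 members among them, and with DESeq2 64 genes and 1 member passed.

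**Figure D5:**
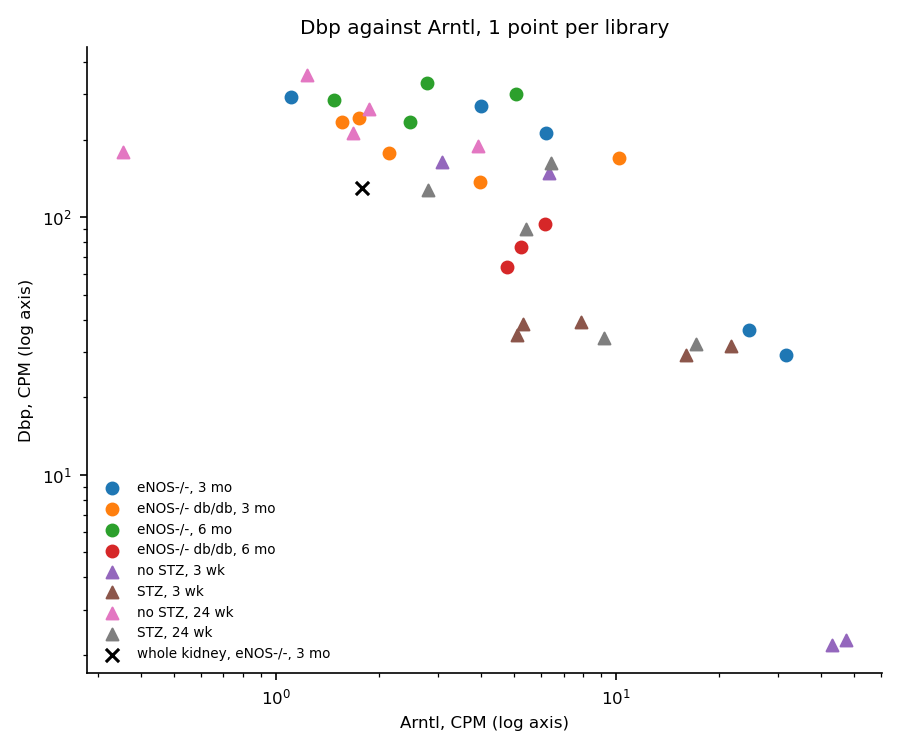
Dbp against Arntl in CPM (both axes log), 1 point per library, by group, with circles for the type 2 model, triangles for the type 1 model and a cross for the whole kidney library. The 5 libraries highest in Arntl, at 21.7 to 47.3 CPM, hold Dbp at 2.19 to 36.7 CPM, and a pair of no STZ libraries at 3 weeks lies farthest down.

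The early diabetic difference was then compared between the models, in a fit of all 36 TRAP libraries. It was more positive in the type 2 model for Cry1 (1.96, SE 0.50, edgeR adjusted p 0.0424), Hlf (1.51, SE 0.32, edgeR adjusted p 0.0133) and Per2 (1.86, SE 0.37, edgeR adjusted p 0.012), on the log2 scale. These 3 of 10 members passed, where 0.940% of all 18511 genes did. Tef stood next, at 1.13 with an edgeR adjusted p of 0.0502. Leaving out both type 2 controls that stood apart left only Per2 called (1.46, 0.0433), beside 0.342% of all genes, with Hlf at 1.26 (0.0791) and Cry1 at 2.27 (0.0527). Leaving out both 3-week controls instead left 3 members called, beside 0.565% of all genes: Tef (1.51, 0.0123), Hlf (1.67, 0.0182) and Per2 (1.81, 0.0407), with Cry1 at 1.59 (0.205). Any of 15 of 19 libraries left out alone also ended the call of Cry1, with adjusted p-values up to 0.103. Age at 3 months was the same in both models, but the way diabetes arose differs between them, no genotype is named for the type 1 mice, and any difference in eNOS status cannot be told apart from it. The late difference, at 6 months of age and 24 weeks of STZ, was called different between the models in no member by edgeR, where 0.438% of all genes passed, and 1 member (Per1) had an unadjusted p under 0.05.

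Controls alone also differed. The 3-month eNOS-/- controls and the 3-week no STZ controls, both aged 3 months, differed in 3 of 10 members, beside 3.60% of all genes. Cry1 was lower in eNOS-/- (-1.79, edgeR adjusted p 0.00262), with libraries at 19, 15.0, 11.7, 10 and 9.41 CPM against the 52.6, 45.9, 18.6 and 48.4 CPM above. Per2 was lower without overlap, as were 1.51% of all genes (-1.43, edgeR adjusted p 0.00133), and it still passed without either pair of controls that stood apart. Nr1d1 was higher without overlap, as were 8.95% of all genes (2.39, edgeR adjusted p 0.0344), but not without the 3-week pair (1.52, 0.267) or the type 2 pair (2.52, 0.0827). Cry1 held without the type 2 pair (-2.09, 0.00637) and not without the 3-week pair (-1.42, 0.0914).

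Between the ages of 3 and 8 months the no STZ controls differed in 2 of 10 members, beside 3.70% of all genes. Arntl was lower at 8 months by -3.93 on the log2 scale (SE 0.79, edgeR adjusted p 0.00924), and Cry1 by -1.87 (SE 0.35, edgeR adjusted p 0.00457). Without the 3-week pair that stood apart neither passed (Arntl -1.40, 0.288; Cry1 -1.48, 0.067). Cry1 at 8 months was at 18.6, 10.9, 8.57, 8.58 and 13.5 CPM, just below the lowest 3-week control, and 2.14% of all genes were lower without overlap. Dbp went the other way, at 179 to 355 CPM at 8 months, all above the highest 3-week control at 164 CPM. It did not pass (1.57, edgeR adjusted p 0.364), nor without that pair (0.59, 0.5). Between 3 and 6 months the eNOS-/- controls differed in no gene by edgeR (0%), with 540 genes, 3 members among them, at an unadjusted p under 0.05 and 21 genes, no member among them, by DESeq2. Dbp at 6 months was even, at 286, 234, 302 and 332 CPM.

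Libraries of one group that were high in Arntl tended to be low in the D-box factors. After the mean of each group was removed, Arntl and Tef had a Pearson r of -0.81 over 36 libraries (Spearman rho -0.78; permutation within groups, adjusted p 0.00054 over the 9 pairs for both measures, from 100000 draws). Arntl was also called against Dbp (r -0.74, rho -0.69, permutation adjusted p 0.00126), Per3 (-0.73, -0.63, 0.0043), Nr1d2 (-0.61, -0.58, 0.0111) and Hlf (-0.58, -0.59, 0.00126). It was not called against Nr1d1 (r -0.35, permutation adjusted p 0.241), Per2 (-0.30, 0.241), Cry1 (0.22, 0.269) or Per1 (-0.07, 0.669).

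Those relations rest in part on the 4 control libraries. Without them Tef alone still passed (r -0.57, permutation adjusted p 0.0369), while Hlf was at -0.46 (0.0814), Dbp at -0.41 (0.107), Per3 at -0.33 (0.302) and Nr1d2 at -0.24 (0.427). Without the 2 libraries farthest from the median of Arntl, type 2 controls 1 and 3 at 3 months, Tef (-0.78), Dbp (-0.72), Per3 (-0.65) and Hlf (-0.54) still passed, and Nr1d2 (-0.59, permutation adjusted p 0.0574) did not. Within the models, Dbp was at -0.81 in 17 type 2 libraries and -0.75 in 19 type 1 libraries, and Tef at -0.90 and -0.73. Per2 was at -0.76 in the type 2 model and 0.16 in the type 1 model, a difference that was not tested.

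Among the other pairs of members, as a description over the same 36 libraries, r was highest between Dbp and Nr1d2 (0.90), Per3 and Tef (0.88), Dbp and Tef (0.81), Dbp and Per3 (0.81) and Nr1d1 and Nr1d2 (0.80). Per1 followed none of the members closely, its highest r being 0.29 with Per2.

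Of 9344 other genes ranked by the same measure, over libraries that share these groups, Bhlhe41 was the most like Dbp (r 0.76). Tspan4 (0.76), Zfp362 (0.75), Eef2k (0.75), Cys1 (0.73), Uqcc1 (0.72), Asap1 (0.70) and Zbtb14 (0.70) came next. Irf2bp2 (-0.80), Slc16a1 (-0.78), Cdkn1a (-0.73) and Gramd4 (-0.71) were the least like it. Without the 4 control libraries Bhlhe41 stayed at 0.77, whereas Cys1 was at 0.01 and Cdkn1a at -0.18. Most like Arntl were Ppard (0.75), Cerk (0.75), Irf2bp2 (0.70), Lasp1 (0.70), Creb3l1 (0.69), Leo1 (0.69), Rnf19b (0.68) and Arrdc3 (0.68), and least like it were Slc5a6 (-0.70), Eef2k (-0.68), Supt16 (-0.66) and Lonp2 (-0.65). Without the 4 control libraries the genes most like Arntl ran from 0.43 (Creb3l1) to 0.78 (Rnf19b). Those least like it then ran from -0.55 (Supt16) to -0.39 (Eef2k).

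Of 18 other genes of the clock machinery, all tested, 3 passed in the type 2 model at 6 months, a smaller share than the 22.9% of all genes. The kinase genes Csnk1d (0.53, SE 0.13, edgeR adjusted p 0.00651) and Csnk1e (0.76, SE 0.23, edgeR adjusted p 0.0229), whose products mark PER proteins for breakdown, were higher. Rora, an activator of Arntl that competes with the Nr1d proteins, was lower (-0.61, SE 0.20, edgeR adjusted p 0.0309). Bhlhe41, at 49.1, 59.7 and 54.5 CPM against 161, 121, 172 and 158 CPM, lay lower without overlap and did not pass (-1.72, edgeR adjusted p 0.0574). None passed in the type 2 model at 3 months or after 24 weeks of STZ by edgeR, with 7 and 2 at an unadjusted p under 0.05, where 2779 of 17180 and 1745 of 16279 genes stood.

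Of 15 genes listed as clock outputs, 14 were tested. Over all genes 3.99% passed at 3 months and 22.9% at 6 months in the type 2 model, and 6.5% after 3 weeks and 0.897% after 24 weeks of STZ. Slc6a6, the taurine transporter, was higher at 3 months (1.60) and 6 months (1.12) in the type 2 model and after 24 weeks of STZ (1.02). Wee1, a cell cycle kinase with E-box control, was higher at 3 months in the type 2 model (1.11), where those 2 were the listed outputs called. Cirbp (1.87) and Rbm3 (1.13), cold-inducible RNA-binding proteins, were higher at 6 months, when 3 outputs passed, close to the share of all genes, and Rbm3 alone passed after 3 weeks of STZ (1.12). None of the 14 was called lower in a diabetic comparison. Their edgeR adjusted p-values ran from 0.000162 for Slc6a6 at 3 months to 0.0205 for Wee1.

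Of 10 genes responsive to glucocorticoid and mineralocorticoid hormones, Sgk1, a kinase of sodium handling, was higher at 3 months (1.36) and 6 months (1.26) in the type 2 model and after 24 weeks of STZ (1.12). Cdkn1c, which is also among the podocyte markers, was lower at 6 months (-1.28). After 3 weeks of STZ Errfi1 (-1.30) and Klf9 (-1.002) were lower. The edgeR adjusted p-values of these calls ran from 0.000517 to 0.0375. Of 12 immediate-early genes, which respond within minutes to many signals, 3 were higher at 3 months in the type 2 model, where 3.99% of all genes passed in either direction, 3 were higher and 1 lower at 6 months, where 22.9% of all genes passed, and none was called after STZ by edgeR (2 at 3 weeks and 1 at 24 weeks at an unadjusted p under 0.05).

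Whole kidney offered a single library of eNOS-/- at 3 months, so its ratios to the 5 TRAP controls carry no test. Arntl was 6.12-fold higher in TRAP (1.78 CPM in kidney, exact 95% Poisson interval 1.32 to 2.35, counting error only), but 1 of the 5 TRAP libraries lay below the kidney value. That ratio leans on the type 2 control pair that stood apart, at 31.5 and 24.5 CPM, beside 1.11, 6.23 and 3.99 CPM in the others. Cry1 was 3.32-fold and Per1 2.41-fold higher in TRAP, in 5 of 5 libraries each. Hlf and Per2 were higher in kidney, by 2.15-fold and 2.05-fold, with every TRAP library below. Dbp (130.3 CPM in kidney), Per3 and Tef lay within the TRAP range. Outside the members, Bhlhe41 was 7.05-fold higher in TRAP and Ciart 4.31-fold higher in kidney.

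Some members share exon bases with a gene on the other strand, and strand-aware counting is a setting not given in the sources used here. Nr1d1 (11:98767932-98775333 on the minus strand, GRCm38) shares 263 exon bases with Thra, a thyroid hormone receptor gene. Thra differed by -0.44 on the log2 scale in the type 2 model at both 3 months (edgeR adjusted p 0.0436) and 6 months (0.0369), beside -0.98 and -2.60 for Nr1d1, and lay higher in 3-month eNOS-/- controls than in 3-week controls (0.70, 0.00876). Dbp shares 539 exon bases with Sphk2, a sphingosine kinase gene, which was not called in any comparison. Tef shares 193 bases with Gm17597, which had at most 22 counts in a TRAP library. Gm17597 was called lower in the type 2 model at 6 months (-6.02, edgeR adjusted p 0.038). Its counts there were 0 in every diabetic library and 0 to 14 in the controls. Arntl shares 33 bases with Gm45355, which was not analysed here. How many reads these pairs share was not tested.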

How the data were processed

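Libraries were made with a NuGEN Ovation mouse kit, per the labels' protocols. The authors deposited raw counts per gene and FPKM; per the submitters' processing notes, cutadapt 1.16, STAR, FastQC and featureCounts 1.15.2 were used. The deposited FPKM equalled count over length and total within 0.001 for 100% of values. The notes name mm9, but of 31871 genes found in GENCODE mouse release 21, 99.981% overlapped their GRCm38 place, so positions are given on GRCm38.

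Counts were fitted with edgeR 4.0.16 in R 4.3.3 (TMM, default filter by group, robust quasi-likelihood F tests, Benjamini-Hochberg at 0.05): 17 type 2 libraries (17180 genes), 19 type 1 libraries (16279) or all 36 (18511). SEs are the log2 difference over the square root of F. CPM is a count scaled to the library total. Correlations used log2 CPM (prior count 3), and kidney ratios CPM plus 0.5. DESeq2 1.42.0, limma 3.58.1, other size factors, filters, fits and left-out libraries were alternatives. The steps were tested on simulated data. The members and gene lists were chosen with earlier results of these data known. All members are named, as are other listed clock, output and hormone genes that were called (at most 6 a list) and the genes most and least like Dbp and Arntl. The result of 1 listed clock gene, and the count of its list after 3 weeks of STZ, are not reported here.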

Additional observations from a re-analysis of the deposited data

Results flagged for a closer look

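In 70 combinations of member and group with at least 4 libraries, 2 held a library far from the rest of its group on the log2 scale, where chance marks about 1 in 20 groups. Cry1 was at 18.6 CPM in replicate 3 of the 3-week controls, against 45.9 to 52.6 CPM in the others. Per3 was at 14.1 CPM in replicate 5 of the mice after 3 weeks of STZ, against 34.5 to 38.7 CPM. The early diabetic difference was higher in the type 2 model than in the type 1 model for Cry1 (1.96 on the log2 scale), Hlf (1.51) and Per2 (1.86), by the edgeR interaction test.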

How the results depend on the processing

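The number of members called in the type 2 model at 3 months was 1, and it was 3 with DESeq2, 0 without a filter on low counts, 0 with all 36 libraries in the fit and 0 without control replicates 1 and 2 (chosen after seeing the data). Of the 3 by DESeq2, 1 was higher and 2 were lower. Limma on log2(FPKM + 0.1) also called 1 member there, but as higher, and called none lower, Nr1d1 included. At 6 months it was 4, and 2 without a filter and 2 with all 36 libraries. After 24 weeks of STZ it was 0, and 1 with only the groups compared. The change of the diabetic difference with time called 0 members in each model, and with DESeq2 2 in type 2 and 1 in type 1. The early difference between models called 3, and 1 with the replicate block and 1 without the type 2 controls that stood apart. The controls aged 3 months differed in 3, and in 1 without the 3-week pair. The no STZ controls differed with age in 2, in 4 by limma on log2(FPKM + 0.1), 2 higher and 2 lower, and in 0 without that pair. The cause was not tested. The log2 difference of Dbp after 3 weeks of STZ turned from -1.26 to 0.81 with limma and to 0.49 with the replicate block, and that of Arntl from -1.30 to 1.24 without the 3-week pair. Without the 4 control libraries the r of Arntl was -0.046 with Cry1, 0.073 with Nr1d1, -0.33 with Per3, -0.24 with Nr1d2, -0.41 with Dbp and -0.46 with Hlf.

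With 1 library left out, members called ranged from 0 to 1 in the type 2 model at 3 months, from 2 to 4 at 6 months and from 0 to 3 for the change between them, and r with Per1 from -0.17 to 0.062. Same-numbered libraries deviated together in some pairs only (r -0.32 to 0.50 over 17 pairs, 7 of them over 0.1 and 3 closest to their own number). The replicate block otherwise kept each count of members within 1.5 times. It could not be estimated for controls between ages or models. All-gene counts also moved: at 3 months from 685 to 331 without the control pair and 1246 by DESeq2, at 6 months from 3934 to 2326 with only the groups compared and 1932 without diabetic replicate 3, after 3 weeks of STZ from 1058 to 481 without the control pair and 1735 by DESeq2, and after 24 weeks from 146 to 67 without control replicate 3 and 429 by DESeq2. The change with time in the type 2 model called 0 genes, and 1911 without diabetic replicate 2 at 6 months. Differences between models moved from 174 to 63 and 462 (early) and from 81 to 3 and 549 (late), and the controls aged 3 months from 667 to 268 and 1174. The low counts of Arntl limit the precision of its smallest values.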
